A study of Homo sapiens with 9 samples.

Results

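The p53 target and growth arrest genes described here are 30 genes, chosen by symbol, out of the 58299 genes counted in AC16 cells, and each had exactly 1 entry in the count table. They comprise 6 growth arrest genes, 5 genes of feedback and control, 10 genes of cell death signalling, 4 DNA repair genes, 4 genes of metabolism and 1 secreted factor. The BCL2 family is not included. The choice was made with earlier results of these data known, so shares set beside those of all genes are description only. AC16 is a dividing human line obtained by fusion of adult ventricular heart cells with fibroblasts transformed by SV40, a virus whose large T antigen is known to bind p53. There were 3 groups of 3 libraries: cells given vehicle (0.1% DMSO) for 72 h, cells given 100 nM CDDO-Me for 24 h, and cells given 100 nM CDDO-Me for 72 h. CDDO-Me (bardoxolone methyl) is a triterpenoid that activates the transcription factor NRF2. By its title the series concerns NRF2 and protection from doxorubicin, but no library received doxorubicin. The labels write CDDO in places where the treatment field gives CDDO-Me. No 24 h vehicle library was analysed here, so at 24 h the treatment and the shorter culture time cannot be told apart. Whether the replicates came from different cultures is not in the labels. The p-values thus reflect the spread of these libraries, which may be technical.

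The protein p53 is a transcription factor that is kept low by the ubiquitin ligase MDM2 and accumulates when DNA is damaged or cells are stressed. It binds DNA as a tetramer, each pair of subunits on a 10-base half-site, and its targets halt the cell cycle, repair DNA, adjust metabolism or prepare the cell for death. MDM2 and PPM1D are themselves targets and close a negative feedback loop. Several targets, among them CDKN1A, GADD45A and GDF15, are also induced by other stress pathways.

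The sequences below show where the half-site letters stand near the start sites of the targets. The RefSeq promoter table (GRCh38.p14) held 23 of the 30 genes. Its windows run from 250 bases before to 50 bases after each start, and some genes have several starts. The p53 decamer half-site, searched on both strands, was found in 6 of the 23 genes (26.1%), against 8.06% of 27305 genes in that table. The 6 stretches of 30 bases, 5′ to 3′ on the strand of the gene, carry the match in capitals.
PLK2, chr5:58460199-58460228, minus strand: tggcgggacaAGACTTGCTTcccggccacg
SESN1, chr6:109009018-109009047, minus strand: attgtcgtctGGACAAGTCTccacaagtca
FAS, chr10:88991299-88991328, plus strand: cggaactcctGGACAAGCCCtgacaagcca
DDB2, chr11:47214974-47215003, plus strand: ggtttGAACAAGCCCtGGGCATGTTTggcg
AEN, chr15:88621296-88621325, plus strand: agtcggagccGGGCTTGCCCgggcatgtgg
FDXR, chr17:74872986-74873015, minus strand: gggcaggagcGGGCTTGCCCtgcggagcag
Only exact matches to RRRCWWGYYY (R is A or G, W is A or T, Y is C or T) were searched, and half-sites with mismatches were not. By exact match, DDB2 was the gene with 2 half-sites side by side, 1 base apart, within the first 30 bases after a start. Of these 6 genes, DDB2 was the one whose level passed the test against vehicle. A link between level and half-sites was not tested. CDKN1A, whose best known p53 sites lie further upstream than this window, had none. TP53I3 and ZMAT3, which also passed a test against vehicle, had none either. GADD45A, which passed too, was not in the promoter table and was not searched.

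CDKN1A and 20 others of the 23 genes (91.3%) held the GC box GGGCGG, the letters bound by SP1-type factors, against 48.3% of all genes. The stretch below, chosen because CDKN1A had the smallest adjusted p of the 30 genes, is its upstream sequence with GC boxes in capitals, ending where the first annotated exon in the window begins.
CDKN1A, chr6:36678464-36678657, plus strand: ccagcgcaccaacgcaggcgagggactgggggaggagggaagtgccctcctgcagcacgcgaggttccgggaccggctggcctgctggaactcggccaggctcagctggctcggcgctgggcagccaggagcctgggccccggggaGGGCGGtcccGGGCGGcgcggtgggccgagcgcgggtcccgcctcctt
Other motifs had shares nearer those of all genes in percentage points, though not in every case as a ratio. The core of the antioxidant response element, TGANNNNGC, to which NRF2 binds, was found in 12 of 23 genes (52.2%) against 47.1% of all genes. A longer form, which contains the core and 1 further base at its 3′ end, was in 1 gene (FAS, 4.35%) against 15.05%. The AP-1 site TGANTCA was in 4 genes (17.4%) against 9.37%, the C/EBP-ATF composite element TGATGNAAN in 1 gene, PLK3 (4.35%), against 4.45%, and the serum response element in 0 genes against 1.60%. These counts describe letters in the window only.

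Total counts were 16898977 to 27910031 per library. CDDO-Me 24 h replicate 3 stood apart from the other 24 h libraries, with a biological coefficient of variation of 19.9 and 20.9% against them, and DMSO replicate 1 differed from the other DMSO libraries by 12.1 and 13.9%. The remaining pairs within a group were between 2.73 and 7.79% apart. Markers of heart muscle cells were nearly absent: of 8 genes, 3 (of the list TNNT2, MYH6, MYH7, ACTN2, TNNI3, NPPA, NPPB and RYR2) were at 0 in all libraries, none passed the filter on low counts, and together they reached 0.318 to 1.65 CPM (counts scaled to a common library total). The 8 fibroblast markers summed to 12571 to 18986 CPM. Against DMSO, edgeR called 1 of the 8 lower at 72 h, and 0 at 24 h. Some markers of other cell types differed between groups as well. Of 4 tested epithelial markers, 1 was lower at 24 h and 2 at 72 h (KRT18 and KRT19), and the 5 on the list summed to 225 to 269 CPM in DMSO, 154 to 221 CPM at 24 h and 128 to 137 CPM at 72 h. Of 6 smooth muscle markers, 2 were lower at each time (ACTA2 and MYOCD) and 1 higher at 72 h (CNN1, adjusted p = 0.0499 by edgeR), with sums of 266 to 435 CPM in DMSO and 182 to 271 CPM in treated cells. The endothelial marker TEK was lower at 72 h, where that list summed to 7.75 to 8.28 CPM beside 13.3 to 15.6 CPM in DMSO. Their part in the results below was not tested. In bulk RNA, fewer cells of a kind and less RNA per cell cannot be told apart. Of the 30 genes, 29 passed the filter. SPATA18, a gene of mitochondrial quality control, had 1 to 12 counts per library and was not tested.

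Per kilobase of exon, CDKN1A was the most abundant of the 30 transcripts in every group. It encodes p21, the inhibitor of cyclin-dependent kinases through which p53 halts the cycle. Its level per length was 50.9 RPKM (the CPM value per kilobase of exon) in DMSO, 56.6 at 24 h and 82.4 at 72 h. GADD45A, a stress protein that acts on the G2/M transition, followed with 47.4, 35.9 and 67.7 RPKM. PLK2, a polo-like kinase, had 32.2, 19.3 and 31.4 RPKM and ranked 3, 6 and 3 in order. CCNG1 was at 27.8 RPKM in DMSO and TRIAP1 at 21.2. At the low end in DMSO were FAS (1.02 RPKM), EDA2R (0.853 RPKM) and SPATA18 (0.0406 RPKM). TP53I3 went from rank 10 in DMSO (11.7 RPKM) to rank 6 at 72 h (19.5 RPKM). In DMSO, CDKN1A and GADD45A lay close together in this order, as did TNFRSF10B (16.8 RPKM) and POLH (16.7 RPKM).

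**Figure D1:**
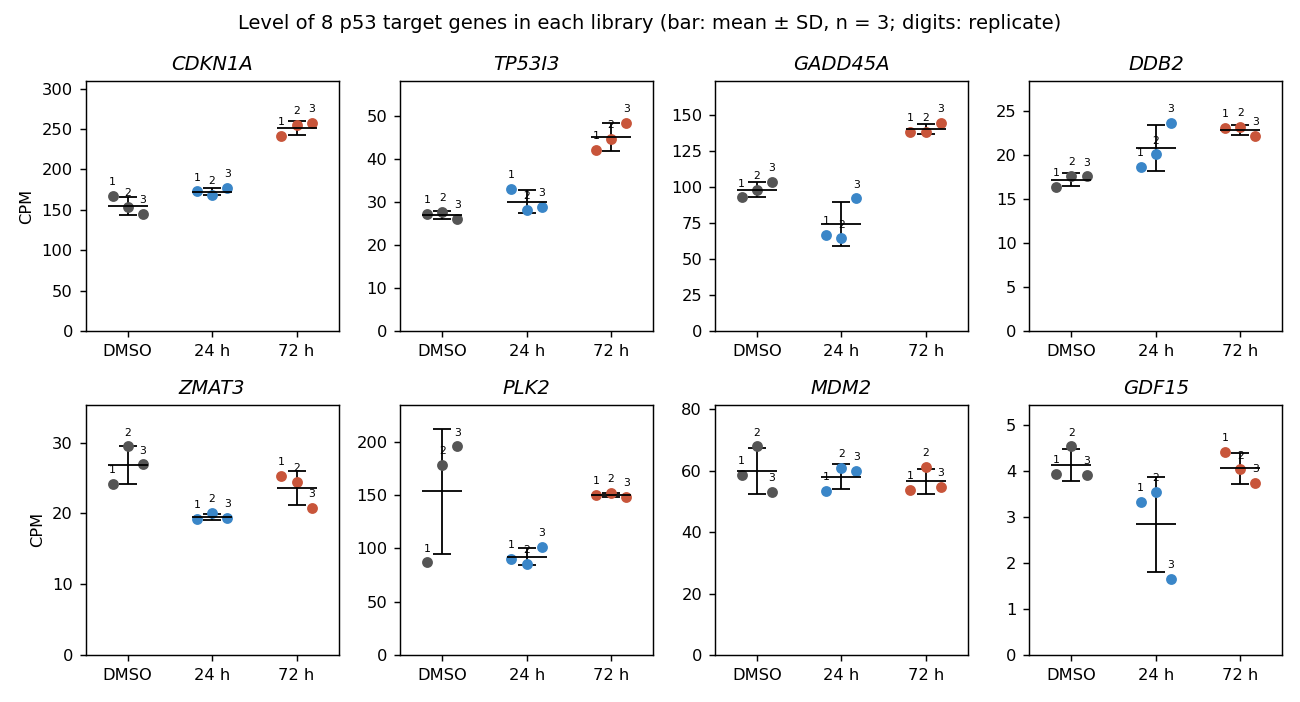
Level in CPM (linear axis from 0) of CDKN1A, TP53I3, GADD45A, DDB2, ZMAT3, PLK2, MDM2 and GDF15 in each of the 9 libraries, with points numbered by replicate and bars at the mean ± SD of 3 libraries. The 72 h libraries of CDKN1A, TP53I3 and GADD45A lie above all others, whereas MDM2 overlaps across the 3 groups.

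After 72 h of CDDO-Me, 4 of the 29 tested genes were higher than in DMSO at an adjusted p below 0.05 (edgeR's quasi-likelihood test, adjusted over all 14965 tested genes), where 2.89% of all tested genes were higher and 6.02% changed in either direction. They were CDKN1A, TP53I3, GADD45A and DDB2. No gene of the 30 was lower, where 3.13% of all tested genes were. At an unadjusted p below 0.05 there were 8 higher and 0 lower, where 9.1% and 9.47% of all tested genes were. The groups did not overlap for 10 genes, all higher, where 15.5% of all tested genes were fully apart and higher and 15.2% fully apart and lower. The median log2 fold change of the 29 genes was 0.11, beside -0.00093 over all tested genes. All p-values for genes below are edgeR's, adjusted over all tested genes, and a log2 fold change is followed by ± its standard error.

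Among the growth arrest genes, CDKN1A (chromosome 6, 36676460 to 36687339, plus strand, GRCh38) rose. Its level was 167, 154 and 145 CPM in the DMSO libraries, 173, 168 and 177 CPM at 24 h, and 241, 255 and 258 CPM at 72 h. The 72 h libraries lay above all 6 others, and the 24 h libraries lay just above DMSO. At 72 h the log2 fold change was 0.69 ± 0.07 (1.62-fold, adjusted p = 5.3e-05), and it was past the threshold in every alternative run. At 24 h the log2 fold change was 0.15 ± 0.07 with an adjusted p of 0.414. Exons of CDKN1A share 146 bases with DINOL, an antisense transcript with a mean of 0.333 counts per library.

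GADD45A (chromosome 1, 67685061 to 67688338) rose at 72 h and had lower values at 24 h. It had 92.7, 98.1 and 103 CPM in DMSO, 66.8, 64.2 and 92.0 CPM at 24 h, and 138, 138 and 144 CPM at 72 h. The 3 groups were fully apart, with 24 h replicate 3 just below the lowest DMSO library. The log2 fold change at 72 h was 0.51 ± 0.11 (1.43-fold, adjusted p = 0.0139). This call was lost without DMSO replicate 1 (adjusted p = 0.0578) or DMSO replicate 2 (0.0657), and without 72 h replicate 1 (0.0543), 2 (0.0543) or 3 (0.0768), while the log2 fold change stayed between 0.48 and 0.53.

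The other growth arrest genes did not pass the test at 72 h. BTG2, an antiproliferative cofactor of mRNA decay, had 3.46, 2.5 and 2.56 CPM in DMSO and 4.55, 4.72 and 4.22 CPM at 72 h, which did not overlap. Its log2 fold change was 0.66 ± 0.22 (adjusted p = 0.0942), and it passed without 24 h replicate 3 (0.66, adjusted p = 0.0388) and in a fit of the 6 libraries alone (adjusted p = 0.0432). At 72 h these fits called 1972 of 15311 tested genes (12.9%) and 1776 of 14534 (12.2%). PLK2 (-0.04), PLK3 (-0.30) and GADD45B (-0.12) overlapped with DMSO at 72 h. PLK2 in DMSO replicate 1 was less than that of the other DMSO libraries, at 86.7 CPM beside 178 and 195 CPM. Without that library PLK2 was lower at 72 h (log2 fold change -0.32, adjusted p = 0.049).

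Of the feedback genes none passed at 72 h. MDM2 (chromosome 12, 68808176 to 68850686), the ligase that degrades p53 and one of its most used reporters, had 58.7, 67.9 and 53.2 CPM in DMSO, 53.3, 60.8 and 59.8 CPM at 24 h and 53.7, 61.2 and 54.7 CPM at 72 h. The 3 groups overlapped. Its log2 fold change at 72 h was -0.08 ± 0.10 (adjusted p = 0.729), with a 95% interval of -0.30 to 0.13. PPM1D, the phosphatase that switches the p53 response off, was at 0.03 ± 0.12, with an interval of -0.22 to 0.28. CCNG1 (-0.01), an atypical cyclin, and FBXO22 (0.15), an F-box subunit of a ubiquitin ligase, also missed the threshold. ZMAT3, an RNA-binding zinc finger protein, was at -0.19.

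Among the cell death genes, 0 of 9 tested passed at 72 h by edgeR and 0 by DESeq2 or limma-voom, and 2 had an unadjusted p below 0.05, both higher. These were FAS, a death receptor, and PHLDA3, an inhibitor of AKT signalling. FAS had 3.36, 4.74 and 4.89 CPM in DMSO and 6.06, 7.80 and 5.39 CPM at 72 h, with no overlap and a log2 fold change of 0.57 ± 0.20 (adjusted p = 0.123). FAS exons share 380 bases (8.93%) with ACTA2 on the opposite strand, whose level fell by 0.98 on the log2 scale. These libraries do not keep the strand, and reads in the shared bases cannot be told apart.

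PHLDA3 had 42.3, 35.5 and 30.7 CPM in DMSO and 47.6, 44.6 and 42.7 CPM at 72 h, a log2 fold change of 0.31 ± 0.12 (adjusted p = 0.146). Its 72 h values were all above DMSO, by a small margin over DMSO replicate 1. Without that library PHLDA3 passed (0.44, adjusted p = 0.0392). The death receptors TNFRSF10A (-0.03) and TNFRSF10B (-0.03) and the nuclease AEN (-0.05) were near 0 on the log2 scale at 72 h. PERP (0.20), a desmosomal protein linked to cell death, TRIAP1 (0.20), an inhibitor of apoptosis, TP53INP1 (0.20) and EDA2R (0.18) had values above 0 that did not pass.

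In DNA repair, DDB2 (chromosome 11, 47214465 to 47239240), the damage sensor of nucleotide excision repair, rose at 72 h. It had 16.4, 17.7 and 17.6 CPM in DMSO, 18.7, 20.1 and 23.7 CPM at 24 h and 23.2, 23.2 and 22.2 CPM at 72 h. Both treated groups lay above DMSO, and they overlapped each other. The log2 fold change at 72 h was 0.41 ± 0.11 (1.33-fold, adjusted p = 0.0444). The call was lost without DMSO replicate 1 (adjusted p = 0.111), 2 (0.112) or 3 (0.0807), without 24 h replicate 2 (0.06), and without 72 h replicate 1 (0.167), 2 (0.165) or 3 (0.135), and with limma-voom (0.0543). XPC, which acts in the same pathway, was at 0.11 ± 0.10, RRM2B, a ribonucleotide reductase subunit, at 0.10 ± 0.11, and the translesion polymerase POLH at -0.13 ± 0.09.

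In metabolism, TP53I3 (chromosome 2, 24077433 to 24085861), a quinone oxidoreductase-like enzyme, had the largest log2 fold change of the 29 genes at 72 h. It had 27.3, 27.8 and 26.0 CPM in DMSO, 33.2, 28.2 and 28.9 CPM at 24 h and 42.1, 44.7 and 48.5 CPM at 72 h. The 72 h libraries stood clear of the rest, and the 24 h libraries were slightly above DMSO. The log2 fold change at 72 h was 0.74 ± 0.10 (1.67-fold, adjusted p = 0.00029), and it was past the threshold in every alternative run. FDXR, a mitochondrial reductase that feeds electrons to P450 enzymes, had 19.6, 26.5 and 26.9 CPM in DMSO and 31.3, 30.7 and 34.1 CPM at 72 h, without overlap (0.40 ± 0.14, adjusted p = 0.135). It passed without 24 h replicate 3 (0.40, adjusted p = 0.0204), without the filter (0.0219) and in a fit of the 6 libraries alone (0.038). These fits called 12.9, 4.21 and 12.2% of their tested genes at 72 h. TIGAR, a phosphatase that lowers glycolytic flux, was at -0.07, and SESN1, a leucine sensor upstream of mTORC1, at 0.15.

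The secreted factor GDF15 (chromosome 19, 18374731 to 18389176), a circulating stress hormone, had 3.93, 4.53 and 3.92 CPM in DMSO, 3.32, 3.55 and 1.64 CPM at 24 h and 4.41, 4.03 and 3.74 CPM at 72 h. The 72 h and DMSO libraries overlapped, and 24 h replicate 3 was the lowest of all. At 72 h the log2 fold change was -0.02 ± 0.25, with a 95% interval of -0.56 to 0.52. At 24 h it was -0.56 ± 0.26 (adjusted p = 0.380).

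**Figure D2:**
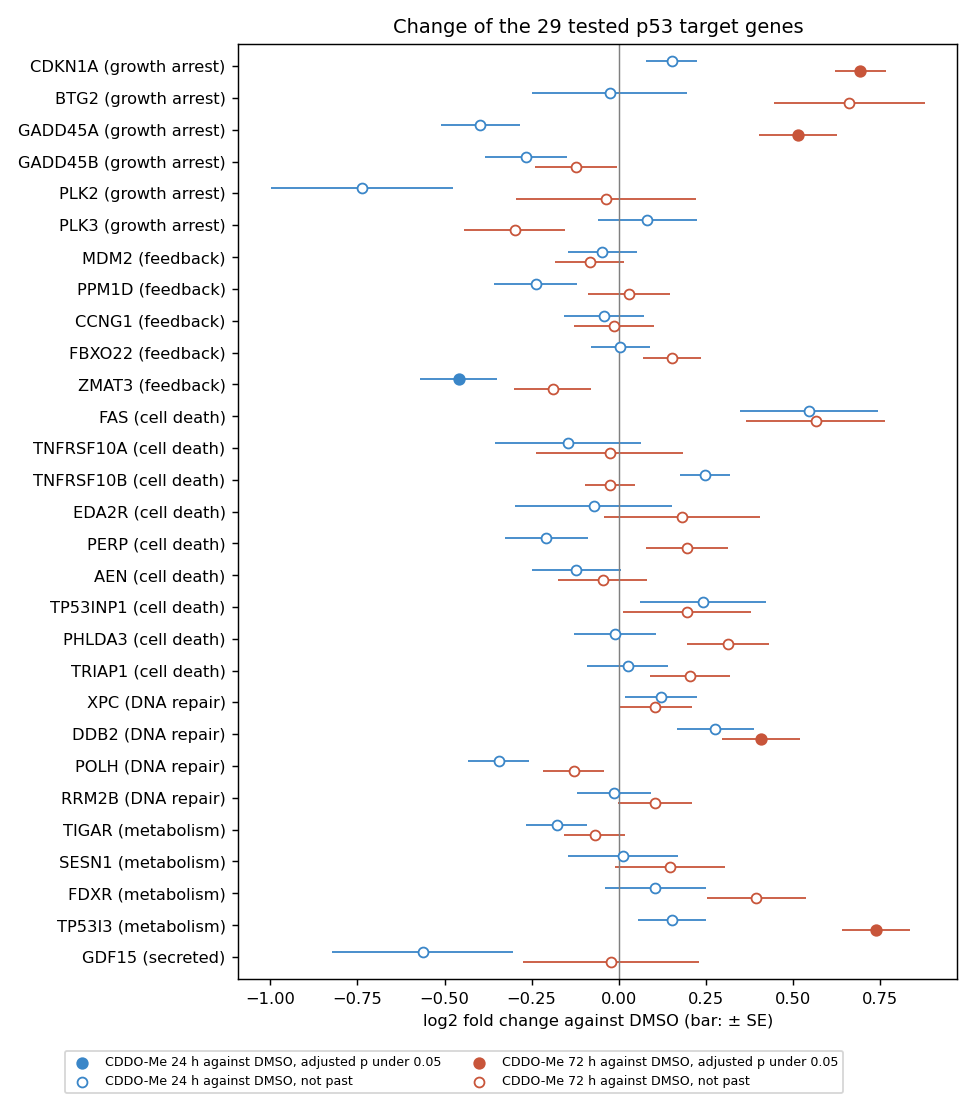
Log2 fold change against DMSO, with bars of ± SE, of the 29 tested genes at 24 h (blue) and 72 h (red), in order of role; both comparisons use the same 3 DMSO libraries. Filled points passed an adjusted p of 0.05: ZMAT3 at 24 h, and CDKN1A, GADD45A, DDB2 and TP53I3 at 72 h.

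After 24 h of CDDO-Me, 1 of the 29 tested genes passed the test against DMSO, where 2.15% of all tested genes did, and it was lower. That gene was ZMAT3. No gene was higher, where 0.969% of all tested genes were higher and 1.18% lower. At an unadjusted p below 0.05 there were 3 higher and 6 lower, where 6.59% and 6.22% of all tested genes were. Groups did not overlap for 5 genes that were higher, where 6.73% of all tested genes did so, and for 6 that were lower, where 6.74% did. The median log2 fold change was -0.03, beside 0.01 over all tested genes, with 12 of 29 above 0.

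ZMAT3 (chromosome 3, 179017223 to 179072279) had 24.2, 29.5 and 26.9 CPM in DMSO, 19.2, 20.1 and 19.3 CPM at 24 h and 25.3, 24.5 and 20.8 CPM at 72 h. The 24 h libraries were tightly grouped below all others. The log2 fold change at 24 h was -0.46 ± 0.11 (0.727-fold, adjusted p = 0.0451). The adjusted p was above the threshold without DMSO replicate 2 (0.238) or 3 (0.115), without 24 h replicate 1 (0.119) or 2 (0.104), and without 72 h replicate 1 (0.0804), 2 (0.0878) or 3 (0.0612). It was also above it with upper-quartile scaling (0.053), limma-voom (0.0572) or a fit of the 6 libraries alone (0.141). The log2 fold change stayed between -0.53 and -0.39 in all of the alternatives.

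Which other genes were called at 24 h differed with the count test, the filter and the libraries kept. GADD45A was at -0.40 ± 0.11 (adjusted p = 0.105). With all libraries kept it passed by DESeq2 (-0.40, adjusted p = 0.0447) and without the filter on low counts (-0.40, adjusted p = 0.0015), and without 24 h replicate 3 it was at -0.58 (adjusted p = 6.0e-05). PLK2 had 89.7, 85.5 and 101 CPM at 24 h, close to DMSO replicate 1 and well under the other DMSO libraries. It was at -0.74 ± 0.26 (adjusted p = 0.276) with all libraries and at -1.02 (adjusted p = 3.0e-05) without DMSO replicate 1.

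POLH had 62.1, 58.4 and 56.9 CPM in DMSO and 45.5, 48.6 and 45.7 CPM at 24 h, a log2 fold change of -0.34 ± 0.09 that just missed the threshold (adjusted p = 0.0578). TNFRSF10B had 87.1, 83.3 and 88.8 CPM in DMSO and 105, 102 and 100.2 CPM at 24 h, a log2 fold change of 0.25 ± 0.07 (adjusted p = 0.106). For both genes the 24 h libraries were fully apart from DMSO. With all libraries kept, DESeq2 called both (adjusted p = 0.0126 for POLH and 0.0496 for TNFRSF10B), and POLH also passed without the filter (0.0331). Without 24 h replicate 3, POLH passed at -0.33 (adjusted p = 0.0231) and TNFRSF10B at 0.26 (adjusted p = 0.0255). In the same fit PERP passed at -0.38 (adjusted p = 0.0123) and AEN at -0.33 (adjusted p = 0.0167). That fit called 1657 of 15311 tested genes (10.8%) at 24 h, 874 higher and 783 lower.

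With DMSO replicate 1 and 24 h replicate 3 both left out, 9 of the 29 genes were called at 24 h. CDKN1A and TNFRSF10B were higher, and GADD45A, PLK2, CCNG1, ZMAT3, PERP, AEN and POLH lower. That fit called 3464 of 15199 tested genes (22.8%), 1825 higher and 1639 lower. CDKN1A was then at 0.19 (adjusted p = 0.0341). At 72 h it called 2724 genes (17.9%), 1326 higher and 1398 lower, and again 9 of the 29, with BTG2, PERP, PHLDA3 and FDXR added on the higher side to CDKN1A, GADD45A, DDB2 and TP53I3, and PLK2 lower. A list of 10 tested transcripts was taken as marks of RNA quality and nuclear retention, among them MALAT1, H1-2 and CLK1. Their median, relative to the DMSO mean, was 0.39 in DMSO replicate 1, 0.35 and 0.43 in 24 h replicates 1 and 2, and between -0.25 and -0.04 in the other libraries. They did not all move together. With all libraries kept, their median log2 fold change at 72 h was -0.34, while the 2 that edgeR called, H1-2 (0.72) and H2BC12 (0.68), were higher. The part of these transcripts in the results was not tested.

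**Figure D3:**
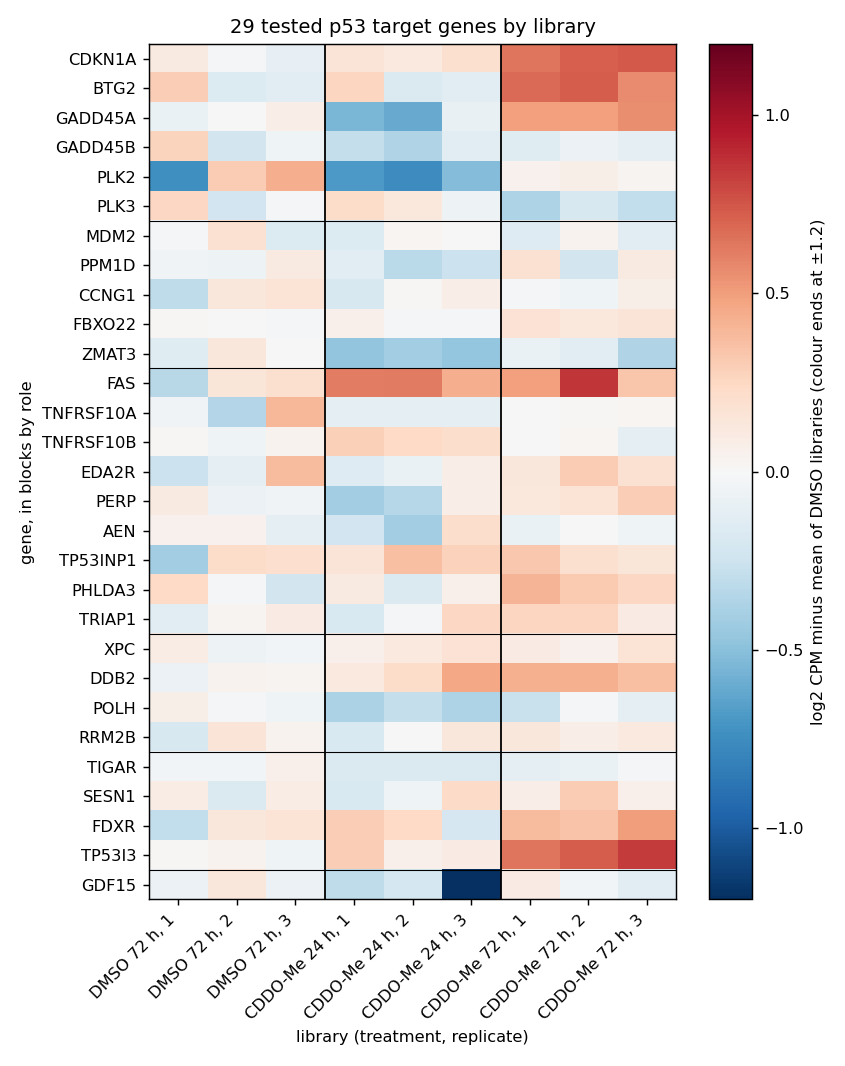
Log2 CPM of the 29 tested genes in each library minus the mean of the DMSO libraries (columns: libraries; blocks of genes: growth arrest, feedback, cell death, DNA repair, metabolism, secreted). DMSO replicate 1 has the low PLK2 value, and GADD45A, PERP and AEN differ between 24 h replicates 1 and 2 on one side and replicate 3 on the other.

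Between the treatment times, 3 of the 29 genes were higher at 72 h than at 24 h, where 0.448% of all tested genes were, and 0 were lower, where 0.568% were, of 1.02% called in all. The 3 genes were GADD45A, CDKN1A and TP53I3. At an unadjusted p below 0.05 there were 10 higher and 2 lower, where 5.75% and 7.4% of all tested genes were. Groups did not overlap for 15 genes that were higher, where 10.8% of all tested genes did so, and for 2 that were lower (PLK3 and TNFRSF10B), where 10.2% did. Of the 29 log2 fold changes, 24 were above 0, with a median of 0.15 beside -0.01 over all tested genes.

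GADD45A had the largest difference, 0.91 ± 0.11 (1.88-fold, adjusted p = 0.00157). CDKN1A differed by 0.54 ± 0.07 (1.46-fold, adjusted p = 0.00238), and TP53I3 by 0.59 ± 0.10 (1.5-fold, adjusted p = 0.00929). CDKN1A and GADD45A were past the threshold in every alternative run. TP53I3 was not past it without 24 h replicate 2 (adjusted p = 0.0523), 72 h replicate 2 (0.0605) or 72 h replicate 3 (0.0889). Without 24 h replicate 3, PERP (0.58, adjusted p = 0.000514) and AEN (0.28, adjusted p = 0.0341) were higher too, and PLK3 (-0.45, adjusted p = 0.0461) and TNFRSF10B (-0.29, adjusted p = 0.0151) were lower. That fit called 1843 of 15311 tested genes (12%) between the times. PLK2 was higher without DMSO replicate 1 (0.70, adjusted p = 0.000434), a library that enters this comparison through the shared estimate of spread, and in a fit of the 6 libraries alone (0.69, adjusted p = 0.00287). With all libraries kept, PERP also passed without the filter (0.42, adjusted p = 0.00853) and TNFRSF10B by DESeq2 (-0.27, adjusted p = 0.0249).

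Immediate early genes respond within minutes to serum and stress. Their median level was lowest at 24 h, although 2 of the 18 (ZFP36 at 0.35 and IER5 at 0.07) had log2 fold changes above 0 there. GADD45A and PLK2 also had their lowest means at 24 h, as did many other members, among them ZMAT3, POLH, PERP and GADD45B. CDKN1A, TP53I3 and DDB2 had theirs in DMSO. Of the 18 immediate early genes tested, 5 were lower and 0 higher at 24 h, 0 lower and 3 higher at 72 h. Between the times, 6 were higher at 72 h than at 24 h. Without DMSO replicate 1, 10 were lower at 24 h, where 2.3% of all tested genes were called. Without 24 h replicate 3, 8 were lower, where 10.8% of all tested genes were called. By library, their median log2 level relative to DMSO was -0.25 in DMSO replicate 1, 0.10 and 0.17 in DMSO replicates 2 and 3, -0.68 to -0.49 at 24 h and 0.15 to 0.27 at 72 h. The part of the immediate early genes in the values of GADD45A, PLK2 or other members was not tested.

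Of 21 tested genes of the p53 circuit (kinases such as ATM, CHEK1 and CHEK2, and regulators such as MDM4 and USP7), edgeR, DESeq2 and limma-voom each called 0 in all 3 comparisons. At an unadjusted p below 0.05, edgeR gave 0 higher and 1 lower at 24 h, 1 higher and 2 lower at 72 h, and 0 higher and 1 lower between the times. The median log2 fold changes were -0.04, -0.07 and 0.01 in these comparisons. Without 24 h replicate 3 the counts were 1, 3 and 2, where 10.8, 12.9 and 12% of all tested genes were called. These shares also stand beside the counts of that fit in the lists below. RNA levels carry no measure of the amount of p53 protein or of its modification.

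A further 34 tested p53 targets outside the 30 split in direction. SESN2, a sestrin that is also a target of the stress factor ATF4, rose at both times, from 35.3, 34.7 and 35.0 CPM in DMSO to 50.9, 49.1 and 50.3 CPM at 24 h and 43.0, 45.2 and 46.9 CPM at 72 h. The log2 fold changes were 0.52 ± 0.08 (adjusted p = 0.00271) and 0.36 ± 0.08 (adjusted p = 0.0134), and the call at 72 h was lost without DMSO replicate 2 (0.0557), 72 h replicate 2 (0.0732) or 72 h replicate 3 (0.1). KITLG, the ligand of the KIT receptor, rose at 72 h, from 28.5, 29.1 and 27.7 CPM to 57.5, 60.6 and 64.8 CPM (1.10 ± 0.18, adjusted p = 0.003). KITLG at 24 h had 34.6, 36.7 and 60.8 CPM, with replicate 3 near the 72 h level. SFN, a 14-3-3 protein of the G2 checkpoint, was the third gene to rise at 72 h, at the low level of 0.371 ± 0.014 CPM in DMSO and 1.23 ± 0.21 CPM at 72 h (SD, n = 3; log2 fold change 1.70 ± 0.38, adjusted p = 0.0145), and it was named after its values were seen.

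DRAM1, a lysosomal protein that promotes autophagy, fell at both times. It had 71.2, 83.5 and 81.7 CPM in DMSO, 59.1, 56.8 and 38.8 CPM at 24 h and 42.5, 41.2 and 44.4 CPM at 72 h, and no treated library reached the DMSO values. The log2 fold changes were -0.62 ± 0.13 (adjusted p = 0.0236) and -0.88 ± 0.13 (adjusted p = 0.00102). The call at 24 h was lost without DMSO replicate 2 (0.129) or 3 (0.0943) and in a fit of the 6 libraries alone (0.095). In all, 1 of the 34 targets was higher and 1 lower at 24 h, and 3 were higher and 1 lower at 72 h. Between the times 0 were called by edgeR, DESeq2 or limma-voom, with 3 higher and 3 lower at an unadjusted p below 0.05. The medians were 0.03, -0.01 and -0.02. The balance of directions at 72 h differed with the processing: DESeq2 called 3 higher and 4 lower, and a fit without 24 h replicate 3 called 5 higher and 7 lower. That fit called 4 higher and 2 lower at 24 h, and 2 higher and 5 lower between the times.

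A further list held inhibitors of cyclin-dependent kinases, pocket proteins and other genes of growth control, among them CDKN3, TOB1, BTG1 and SMARCA4. By edgeR, 0 of its 16 tested genes were called at 24 h and at 72 h. At an unadjusted p below 0.05, edgeR gave 2 higher and 1 lower at 24 h, and 5 higher and 0 lower at 72 h. DESeq2 called 1 and 0 of them, and limma-voom 0 and 0. CDKN1B, which encodes the inhibitor p27, was higher at 72 h than at 24 h (0.42 ± 0.07, adjusted p = 0.00659). It had 135, 131 and 135 CPM in DMSO, 112, 114 and 109 CPM at 24 h and 147, 147 and 152 CPM at 72 h. The 3 groups were fully apart, lowest at 24 h and highest at 72 h, the same order as for GADD45A. The call was lost without 72 h replicate 1 (0.0581), 2 (0.0528) or 3 (0.0734). The calls in this list were 3 at 24 h, 5 at 72 h and 4 between the times without 24 h replicate 3.

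Cell cycle genes that p21 is known to repress through the DREAM complex gave 0 calls of 24 in each comparison by edgeR, DESeq2 and limma-voom, while CDKN1A was 1.62-fold higher at 72 h. At an unadjusted p below 0.05, edgeR gave 1 higher and 0 lower at 24 h, 2 higher and 0 lower at 72 h, and 1 higher and 1 lower between the times. Their median log2 fold changes were -0.00 at 24 h, 0.06 at 72 h and 0.03 between the times. By library the median relative to DMSO was -0.09, -0.07 and 0.16 at 24 h, where replicate 3 was the high one, and 0.04 to 0.07 at 72 h. Without 24 h replicate 3, 3 were lower at 24 h, 1 was higher and 1 lower at 72 h, and 4 were higher at 72 h than at 24 h.

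Other stress programmes were measured in the same libraries. NRF2 targets were higher for 15 of 20 genes at 24 h and 18 of 20 at 72 h, with medians of 1.40 and 1.88, and none were lower. Of 17 tested ATF4 and CHOP stress genes, 6 were higher at 24 h and 3 at 72 h, with none lower and medians of 0.46 and 0.27. The count at 24 h was 2 or 3 without DMSO replicate 2, without 24 h replicate 1 or 2, or without any 72 h library, and 2 in a fit of the 6 libraries alone. Those fits called 0.682 to 1.61% of all tested genes at 24 h. Without 24 h replicate 3, 11 of the 17 were higher and 2 lower at 24 h, and 7 were higher at 72 h. The medians of the 29 p53 targets were -0.03 and 0.11, and a difference between the lists was not tested.

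**Figure D4:**
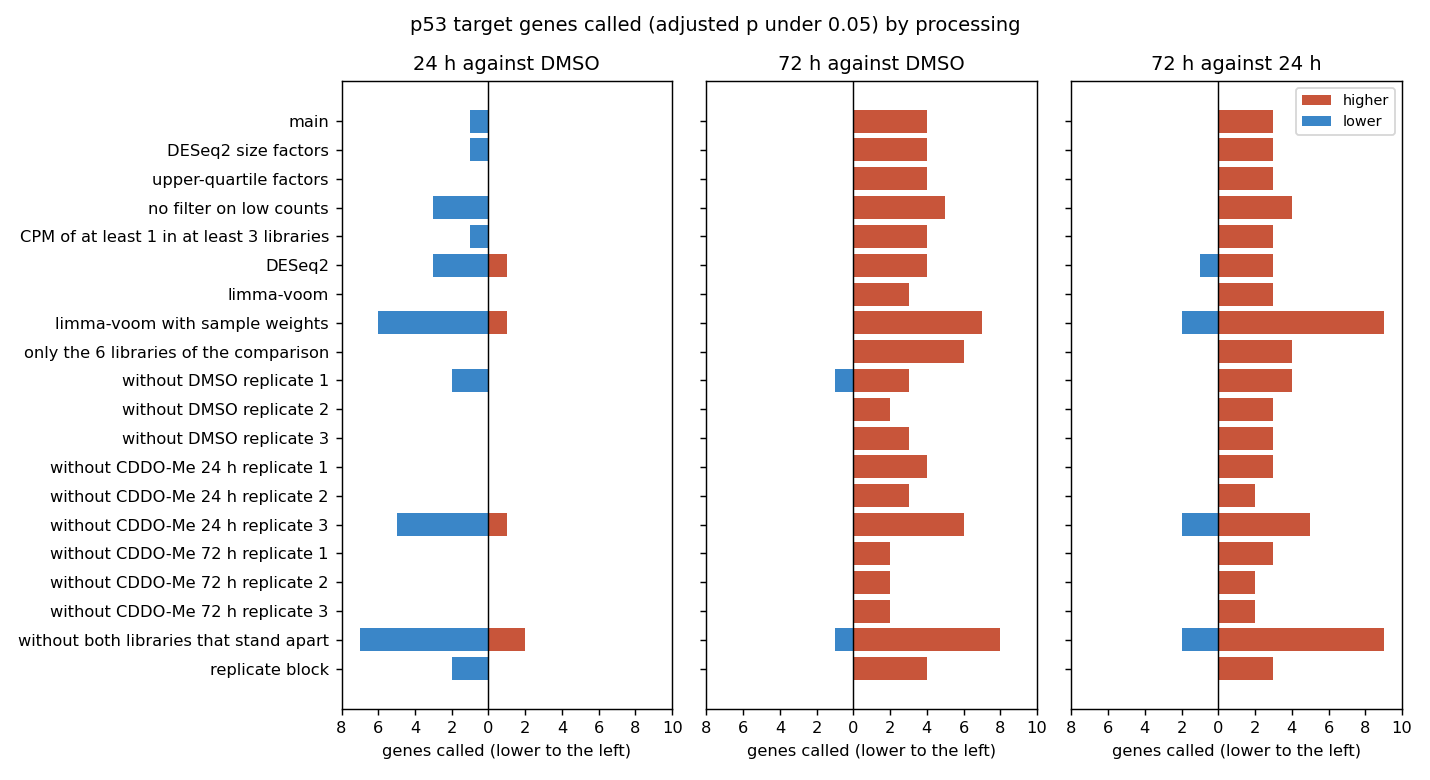
Number of the 29 genes called (adjusted p under 0.05) higher, to the right, and lower, to the left, in the 3 comparisons, under the processing used here ("main") and each alternative. The count at 72 h against DMSO is 2 to 9, and that at 24 h runs from 0 to 9, highest without both libraries that stand apart. That fit called 22.8% of all tested genes at 24 h and 17.9% at 72 h.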

How the data were processed

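Polyadenylated RNA of 9 AC16 samples was made into TruSeq v2 libraries that do not keep strand, per the labels' protocols. The authors deposited whole-number read counts per Ensembl gene without normalization. Builds hg38 and GRCh38 are named in the submitters' processing notes, with the tools featureCounts, Subread, SAMtools and STAR. Not given in the sources used here are versions, the annotation, and how strand and multiply mapping reads were handled. All 9 columns matched a sample by name.

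Counts were fitted with edgeR 4.0.16 in R 4.3.3 (quasi-likelihood, robust, TMM scaling, filterByExpr), with 9 libraries, 3 group means and 6 residual degrees of freedom. The filter left 14965 genes, with Benjamini-Hochberg adjustment over them and a threshold of 0.05. A standard error is the absolute log2 fold change divided by the root of F, and 95% intervals use it with the t distribution of the fit's degrees of freedom. At these depths 3 counts equal 0.107 to 0.178 CPM, for counting error only. DESeq2 1.42.0 and limma-voom (limma 3.58.1) were alternatives, as were other scalings, filters and left-out libraries. Coordinates are those of the deposited table. The exon overlaps and the counts of overlapping genes also come from the deposited table, and the first exon in the CDKN1A window comes from GENCODE 29.

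The 30 genes and the lists were chosen with earlier results of these data known. Values by library are given for genes that passed a test and for CDKN1A, MDM2 and GDF15, and of other lists for up to 3 genes with the smallest adjusted p. A further gene that the rule names is not reported here. Some other members whose groups were apart, or whose call a library decided, have values by library too. PERP, AEN, FBXO22, PPM1D and TIGAR are among those that do not. The GC box was added after the other motifs had been searched.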

Additional observations from a re-analysis of the deposited data

Results flagged for a closer look

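The genes looked at here were the members and, from each p53 or cell cycle list, up to 3 genes with the smallest adjusted p. The immediate early, NRF2 and ATF4 lists were not drawn on. For 4 of these genes the change from DMSO at 72 h differed from the change at 24 h. The test was edgeR's of 72 h against 24 h, in which the shared DMSO libraries cancel, and 152 of all 14965 tested genes (1.02%) passed it. The difference in log2 fold change was 0.54 for CDKN1A, 0.91 for GADD45A, 0.59 for TP53I3 and 0.42 for CDKN1B, with all 3 libraries at 72 h above all 3 at 24 h in each case. GADD45A and CDKN1B had 24 h libraries below DMSO and 72 h libraries above it. Both times are compared with a vehicle of 72 h, so treatment time and culture time cannot be told apart here.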

How the results depend on the processing

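The number of the 29 genes called at 24 h, 1 in the analysis reported, was 0 with upper-quartile scaling, limma-voom or the 6 libraries alone, 3 without a filter, 4 with DESeq2, 7 with limma-voom sample weights, 2 with the replicate block (ZMAT3, and GADD45A at an adjusted p of 0.0277), 9 without both libraries that stood apart, and 0 to 6 when each library was left out in turn. At 72 h, with 4 reported, it was 7 with sample weights, 9 without both libraries and 2 to 6 with each left out. Between the times, with 3 reported, it was 11 with sample weights, 11 without both libraries and 2 to 7 with each left out. The remaining alternatives gave counts within 1.5 times those reported. Over all tested genes the calls were 321 at 24 h (100 to 3464 over the alternatives), 901 at 72 h (401 to 2724) and 152 between the times (32 to 3471). At 24 h the share was 2.15% as reported, 2.23% without a filter, 3.65% with DESeq2 and 2.39% with the replicate block. It was 2.08% with upper-quartile scaling, 1.99% with limma-voom and 0.682% with the 6 libraries alone. With sample weights the shares were 11.1% at 24 h, 17.3% at 72 h and 19.5% between the times. Without both libraries they were 22.8, 17.9 and 22.8%. With each library left out in turn they ran from 0.875 to 10.8%, 2.61 to 12.9% and 0.208 to 12%.

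Of 1653 results of single genes under alternatives, 1562 stayed on their side of the threshold, of which 66 changed sign without a call in either, 26 lost their call, 65 gained one and 0 reversed. The causes were not tested. Whether the replicate numbers pair the samples cannot be told from these libraries. Deviations of libraries with the same number had weak correlations, of -0.03 to 0.08. Across groups, most libraries correlated best with one of their own number, but 24 h replicate 2 and 72 h replicate 2 did not. With the replicate block, the calls over all tested genes were 358 at 24 h, 963 at 72 h and 219 between the times. Depth limits SPATA18, at most 12 counts.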
